A study of Drosophila melanogaster with 12 samples.

Results

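The response of whole-fly RNA to *bmm* overexpression was compared between male and female *Drosophila melanogaster*, as the interaction of sex and genotype. RNA was sequenced from 12 libraries, 3 each of *bmm* males, control males, *bmm* females and control females, each from a separate biological replicate of 20 whole flies. Total counts lay between 20068187 and 34799635 per library. The *bmm* flies carried *da-GAL4*, a driver active in nearly all cells, and *UAS-bmm*. The controls (*da-GAL4/+*) carried the driver without a *UAS* insertion, so an effect of the inserted transgene itself cannot be told apart from that of *bmm*. All 4 groups shared the driver, the *w1118* background to which the lines were backcrossed, and 48 h of mating, and the age at harvest was not given in the sources used here. For each gene the log2 fold change of *bmm* over control in females was subtracted from that in males, and this difference of differences is the interaction. A positive interaction means a more positive response in males. Genes were chosen by level and by list: 7536 of the 13988 genes tested averaged at least 5 CPM (counts scaled to a common library total) in each of the 4 groups and were on none of 4 lists of reproductive genes (yolk and eggshell, ovarian germline, testis and sperm, seminal fluid). Of 7563 genes at that level, 27 were on such a list. The lowest group means just inside the limit were 5.001 CPM for *CG15914* and 5.002 CPM for *CG32202*, and those just outside were 4.998 CPM for *CG10132* and 4.993 CPM for *CG15674*. Whether a gene is somatic was not measured, since RNA came from whole flies, and a change in the number of cells of a type cannot be told apart from a change in RNA per cell.

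*bmm* (brummer) encodes the fly counterpart of mammalian adipose triglyceride lipase, the enzyme that takes the first fatty acid from stored triglyceride at the lipid droplet. Released fatty acids are activated to acyl-CoA, carried into mitochondria as carnitine esters and shortened stepwise by β-oxidation, and the electrons pass through electron transfer flavoprotein to the respiratory chain. Dietary sugar and protein are digested in the fly midgut by maltases, amylases and serine proteases. The tissue that RNA came from was not measured in these whole-fly samples. The lists of maltases, glycosidases and proteases described below may hold genes expressed outside the midgut. Adult male and female flies differ in fat storage, gut size and feeding, and the ovary supplies a large share of the RNA of a mated female.

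*bmm* itself (FBgn0036449, 3L:14776496-14786412, Release 6 assembly) measured 10299, 11417 and 10579 CPM in *bmm* males, against 482, 229.9 and 185 CPM in control males. In females it was 5007, 4966 and 4515 CPM in *bmm* females, against 136, 129 and 145 CPM in control females. Its log2 fold change was 5.17 ± 0.25 in males and 5.14 ± 0.25 in females, and its interaction was 0.02 ± 0.36, which did not pass the test. Control male replicate 1 stood above the other control males. The same library held the most RNA of 25 yolk and eggshell genes: their level was 0.251, 0.169 and 0.173% of the female level in *bmm* males, against 6.196, 1.54 and 0.747% in control males. *w* and *Hsp70Bb*, which also rose with the transgene in both sexes, followed the same order in control males, at 231, 228 and 227 CPM in *bmm* males, against 5.44, 3.11 and 2.12 CPM in control males for *w* and at 477, 550.2 and 532 CPM in *bmm* males, against 24.2, 14.6 and 4.23 CPM in control males for *Hsp70Bb*. Without control male replicate 1, the interaction of *bmm* was 0.57 and passed the test. In females, ovarian germline genes had a median log2 fold change of −0.12 and yolk and eggshell genes −0.16 (41 and 26 genes). Male reproductive RNA in female libraries was at most 0.0204% of the male level. The share of female RNA, subtracted from each male library as an alternative, amounted to a median of 1.34% of the control male level of the genes called, and exceeded 10% for *tor* and *Jon25Bii* among them.

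The interaction passed the test (edgeR's quasi-likelihood test over all 12 libraries, Benjamini-Hochberg adjusted p under 0.05) for 278 of the 7536 genes, or 3.69%, against 2.91% of all genes tested. The response was less positive in males for 248 genes (2.62% of all genes tested were called in this direction) and more positive in males for 30 (0.286%). Among the 248, the median log2 fold change was −0.23 in males and 0.45 in females, and 208 had a fold change below 0 in males and above 0 in females. By the test in each sex, 59 of them fell in males only, 148 rose in females only, 17 fell in males and rose in females, 2 rose in both sexes and 22 passed in neither. Among the 30, the medians were 0.37 in males and −0.10 in females. Of these, 22 rose in males only, 4 fell in females only, 2 rose in males and fell in females, and 2 passed in neither. Over all genes tested, *bmm* overexpression raised 1.74% and lowered 3.33% in males, and raised 5.06% and lowered 0.508% in females. The size of the difference was mostly moderate: 52 genes were under −1 and 4 over 1 on the log2 scale.

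**Figure D1:**
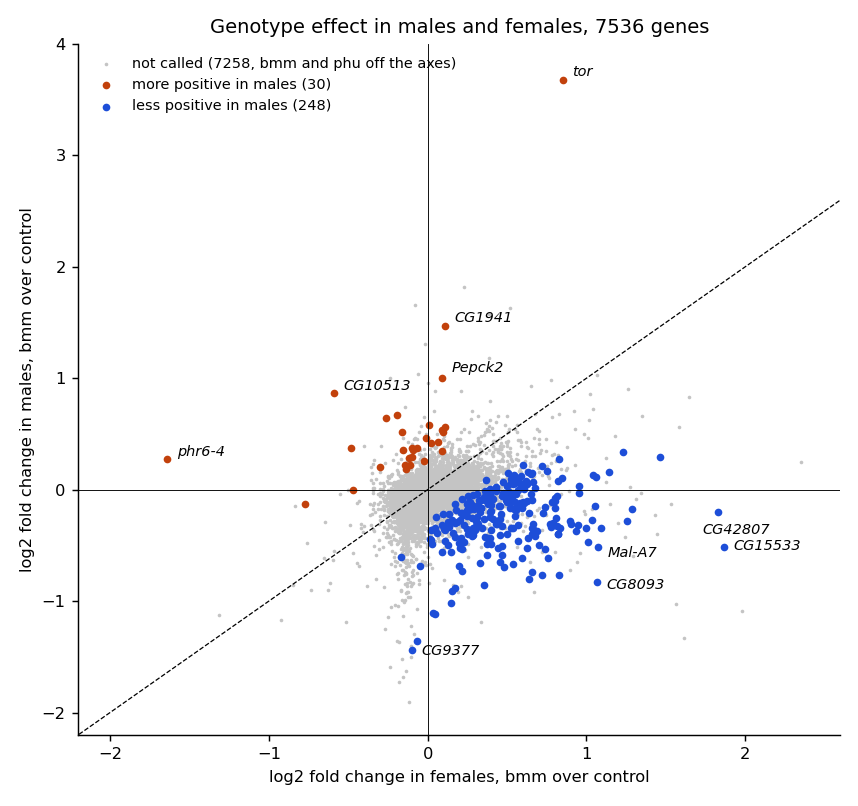
Each point is 1 of the 7536 genes, placed by its log2 fold change of *bmm* over control in females (horizontal axis) and in males (vertical axis). Blue points are the 248 genes with a less positive response in males, orange points the 30 with a more positive one, grey points genes not called, and on the dashed line the 2 responses are equal. Most blue points lie to the lower right, lower in *bmm* males and higher in *bmm* females.

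The number of calls depended on single libraries. With 1 library left out, between 47 (without control female replicate 2) and 397 (without control male replicate 1) of the 7536 genes were called, and the count moved by over 1.5 times without any of the 12 libraries except control male replicates 1 and 3. No gene of the 278 changed the sign of its interaction in any of these 12 fits or in the 9 other settings tried, and 40 of them were called in every one. These fits reuse libraries by which the 278 were chosen, so a kept sign was likely in advance and is no independent check. Same-numbered *bmm* and control libraries deviated together in females and not in males. With the number as a block in females, 276 of the 7536 genes were called, 231 of them among the 278. Of the genes named here, *Hexo2*, *lambdaTry*, *CG3868*, *CG18417*, *Jon25Bii*, *Mcad*, *CG7461*, *GIIIspla2*, *Npc2g*, *santa-maria* and *Tsp42Ee* then had an adjusted p between 0.0532 and 0.079 and did not pass. The balance between directions moved with the setting. With RLE size factors in place of TMM, 53 genes were more positive and 143 less positive in males, with DESeq2, which differs in its test as well as its size factors, 156 and 333, and without control male replicate 1 93 and 304. The median interaction over all genes tested was −0.07 with TMM and −0.02 with RLE size factors.

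**Figure D2:**
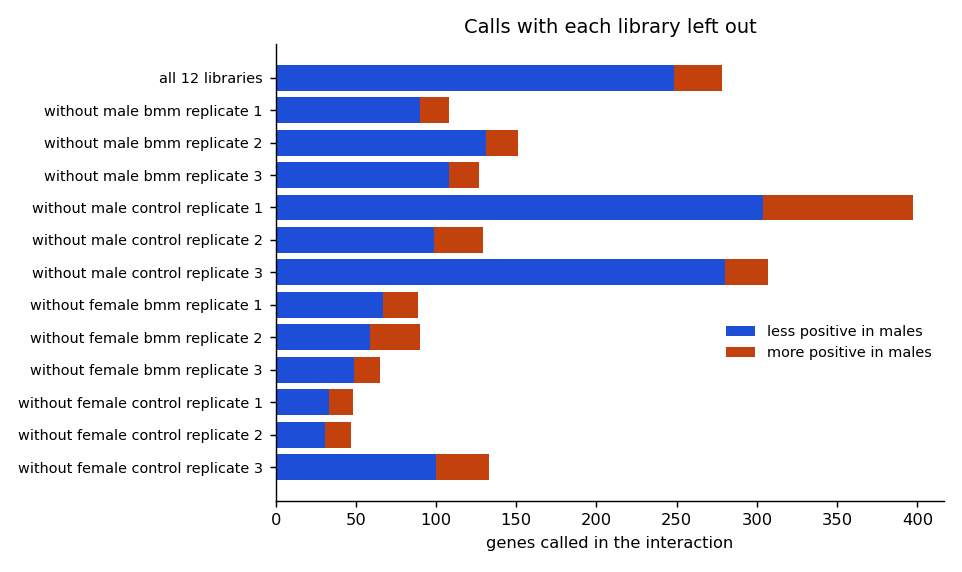
Bars give the number of the 7536 genes called in the interaction with all 12 libraries (top) and with each library left out, split into genes less positive (blue) and more positive (orange) in males. The counts run between 47 and 397, against 278 with all libraries.

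*CG15533*, a predicted sphingomyelin phosphodiesterase (3R:30428820-30431362), had the most negative interaction. It measured 11.4, 12.9 and 14.04 CPM in *bmm* males, against 21.3, 15.2 and 18.2 CPM in control males. The gene measured 34.9, 41.2 and 37.2 CPM in *bmm* females, against 9.53, 10.7 and 10.9 CPM in control females. Libraries of the 2 genotypes did not overlap in either sex. The level fell in males (log2 fold change −0.52 ± 0.12, adjusted p = 0.0321) and rose in females (1.87 ± 0.12, adjusted p = 7.84e-06), which gave an interaction of −2.38 ± 0.17 (adjusted p = 6.77e-05). *CG8093*, a predicted acid lipase, went the same way. Its level was 33.7, 40.3 and 43.05 CPM in *bmm* males, against 71.8, 59.97 and 76.1 CPM in control males, and 53.9, 55.7 and 66.4 CPM in *bmm* females, against 19.3, 30.4 and 34.6 CPM in control females. The interaction of *CG8093* was −1.89 ± 0.25 (adjusted p = 0.00413), with all 3 *bmm* libraries below the controls in males and above them in females. It was the only gene of 14 gut and secreted lipases called, while the median interaction of that list was −0.50, against −0.04 over the 7536 genes.

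Maltases, which split disaccharides into glucose, had the largest share called of the lists examined. Of 11, 8 were less positive in males and none more positive, against 248 and 30 of the 7536 genes. The maltases had a median interaction of −1.15. Their median log2 fold change was −0.43 in males and 0.63 in females. *Mal-A1* measured 850.2, 993 and 913 CPM in *bmm* males, against 1359.5, 1254 and 1374 CPM in control males. In females *Mal-A1* was lower in level, at 395, 394 and 411 CPM in *bmm* females, against 221, 233 and 265 CPM in control females. Genotypes did not overlap in either sex, and *Mal-A1* fell in males (−0.53 ± 0.07, adjusted p = 0.00207) and rose in females (0.74 ± 0.07, adjusted p = 1.83e-04). *Mal-A2* and *Mal-A6* also fell in males (−0.66 and −0.32) and rose in females (0.54 and 0.95). *Mal-A3*, *Mal-A4*, *Mal-A7* and *Mal-A8* had values between −0.52 and −0.34 in males, which did not pass the test, and rose in females by 0.63, 0.63, 1.07 and 1.09. The 7 called *Mal-A* genes lie within 2R:8449664-8473961, and *Mal-A5* was not called. Outside that cluster, *Mal-B2* rose in females only (0.09 in males, which did not pass, against 0.57 in females), and its interaction was −0.48 ± 0.10. *Mal-B1* rose in both sexes, by 1.02 in males and 1.07 in females, and its interaction of −0.04 ± 0.20 did not pass the test. *tobi* was not called in the interaction. Of the 11 maltases, 4 fell and 1 rose in males, while 9 rose and 0 fell in females. Over the 7536 genes, 259 fell and 200 rose in males, while 554 rose and 50 fell in females. All 8 maltases stayed called under the 9 other settings, and between 5 and 8 with 1 library left out.

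**Figure D3:**
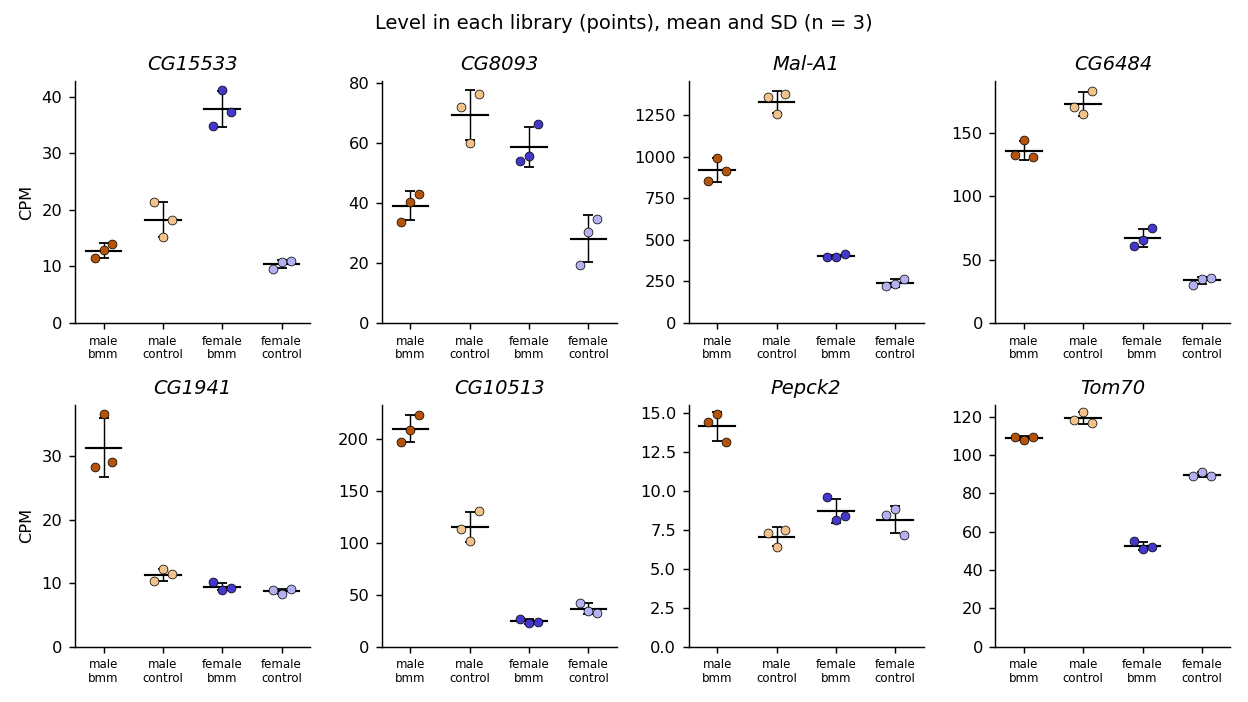
CPM (vertical axis from 0) of 8 genes in each library, with the mean and SD of 3 libraries per group. The 4 genes in the upper row, such as *CG15533*, were lower in *bmm* than in control males and higher in *bmm* than in control females, and in the lower row *CG1941* and *Pepck2* stand higher in *bmm* males only, *CG10513* is higher in *bmm* males and lower in *bmm* females, and *Tom70* is lowest in *bmm* females.

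Sugar transporters differed mostly by a rise in females. Of 18 predicted transporters, 6 were called less positive in males (*CG6484*, *CG1208*, *CG1213*, *CG7882*, *CG4607* and *Tret1-1*) and none more positive, and 4 rose in males, against 9 in females. Over the 7536 genes, 248 were called less positive and 30 more positive, and 200 rose in males, against 554 in females. *CG6484* had the most negative interaction, at −1.34 ± 0.12 (adjusted p = 2.08e-04). Its level was 132, 144 and 131 CPM in *bmm* males, against 170.3, 165 and 183 CPM in control males, and 61.02, 65.3 and 74.6 CPM in *bmm* females, against 30.2, 34.8 and 35.6 CPM in control females, with no overlap between genotypes in either sex. *Tret1-1*, a trehalose transporter, had 0.12 in males, which did not pass, and rose in females (0.59 ± 0.06), and *CG7882* rose in both sexes, less in males (0.28, against 0.83 in females). The list's median interaction was −0.22. It lay between −0.27 and −0.08 with 1 library left out, at −0.08 without control female replicate 2.

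In the lists of glycosidases and proteases, more genes fell in males than in females. The same held over the 7536 genes, of which 259 fell in males and 50 in females. In the interaction, 248 of the 7536 were less positive and 30 more positive in males. Of 18 glycosidases, 5 were less positive in males: *Gba1b*, a glucocerebrosidase, *LManI* and *LManIII*, which are α-mannosidases, *Gal*, a β-galactosidase, and *Hexo2*, a hexosaminidase. *Gba1b* and *LManI* rose in females, by 1.06 and 0.46, whereas *LManIII* and *Gal* fell in males, by 0.86 and 0.68 on the log2 scale. The digestive amylases *Amy-p* and *Amy-d* were not called, with interactions of −0.15 and −0.25. Of 32 trypsin-like and Jonah serine proteases, 6 were less positive in males (*Ser8*, *kappaTry*, *CG10477*, *CG7542*, *lambdaTry* and *CG3868*) and 1, *Jon25Bii*, more positive, and 11 fell in males, against 2 in females. The median interaction of this list was −0.41. The trypsins *alphaTry* and *betaTry* had values of −0.08 and 0.01, neither called. *Jon25Bii* measured 17.2, 11.9 and 14.5 CPM in *bmm* males, against 9.43, 7.68 and 10.7 CPM in control males, but 240.4, 324 and 239 CPM in *bmm* females, against 309, 319.5 and 335 CPM in control females, and female RNA amounted to 75.5% of its control male level. Among 18 other gut peptidases, 4 were less positive in males. *CG9377* fell to 11.2, 9.02 and 6.57 CPM in *bmm* males, against 21.5, 21.6 and 29.6 CPM in control males, with 4.87, 5.35 and 5.52 CPM in *bmm* females, against 5.95, 5.17 and 5.801 CPM in control females, so that the genotypes overlapped in females and not in males. *CG18417* (−1.29), *CG15255* (−1.01) and *CG18585* (−0.65) were the others.

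Further genes among the 15 with the most negative interaction were of several kinds. *mesh*, a protein of the smooth septate junctions that seal the midgut epithelium, had an interaction of −1.49 ± 0.35 (adjusted p = 0.0459) and passed the test in neither sex alone. It was called in 2 of 12 fits with a library left out. *Ssk*, which works with *mesh* at those junctions and was looked up after its values were seen, had an interaction of −1.09 ± 0.24 (adjusted p = 0.0348) and rose in females (0.79), and was also called in 2 of those fits. The C-type lectin *lectin-37Db* (−1.44 ± 0.29) fell in males. *CG42807* (−2.03 ± 0.41), *CG4363* (−1.54 ± 0.14), *CG4269* (−1.48 ± 0.29), *CG42335* (−1.47 ± 0.30) and *CG9084* (−1.37 ± 0.26) rose in females and did not pass in males. *CG3604* (−1.59 ± 0.29) fell in males, and *CG31104* (−1.40 ± 0.15) fell in males and rose in females. *lectin-37Db* and *CG3604* did not pass in females. Their log2 fold changes with the replicate block in females were 0.615 and 0.833 in females, against −0.802 and −0.766 in males. With a library left out, *lectin-37Db*, *CG42807*, *CG4269*, *CG42335*, *CG9084* and *CG3604* were called in 3 to 7 of 12 fits, and *CG31104* and *CG4363* in all 12. *CG4363* measured 78.6, 87.96 and 92.02 CPM in *bmm* males, against 103, 104 and 107 CPM in control males, and 30.1, 29.5 and 37.3 CPM in *bmm* females, against 12.5, 13.1 and 14.97 CPM in control females. Of 54 cytochrome P450 genes, which oxidise lipids, hormones and foreign compounds, 6 were less positive in males (*Cyp9h1*, *Cyp6d4*, *Cyp6w1*, *Cyp12c1*, *Cyp6a23* and *Cyp9f2*) and *Cyp6a8* more positive, and 3 rose in males, against 18 in females. Over the 7536 genes, 200 rose in males and 554 in females. UDP-glycosyltransferases, which attach sugars to small molecules for excretion, had 3 of 14 called less positive (*Ugt35B1*, *Ugt49C1* and *Ugt303B3*), and purine metabolism 3 of 28 (*Adgf-D*, an adenosine deaminase, *pug* and *Paics*). For comparison, 3.69% of the 7536 genes were called, and 9.58% of those with a level more than 2 times higher in males. Of 30 genes of lipid transport, *Npc2b* and *Npc2g*, of a family of sterol-binding proteins, and *santa-maria*, a scavenger receptor, were called less positive beside *CG15533*.

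**Figure D4:**
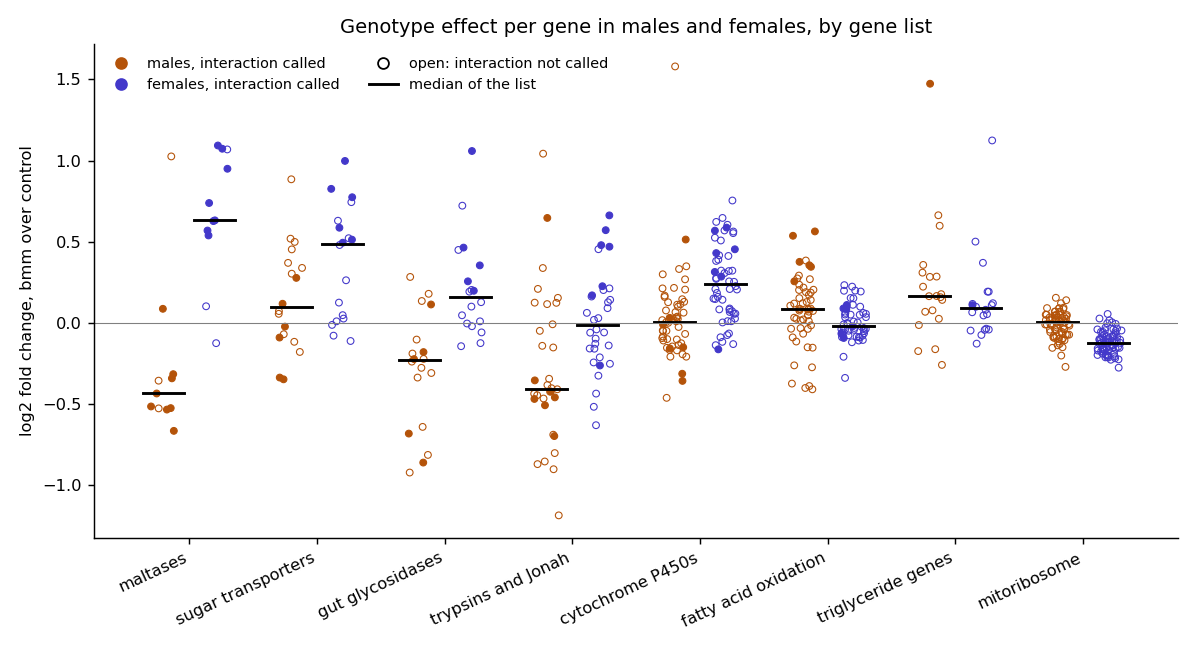
Each point is the log2 fold change of *bmm* over control for 1 gene of a list, in males (orange) and females (violet), with *bmm* itself left out. Filled points are genes called in the interaction and bars are medians. The median bar of the maltases lies below 0 in males and above 0 in females, and the filled points of fatty acid oxidation stand above 0 in males and near 0 in females.

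Fatty acid oxidation was the list with the most genes more positive in males: 6 of 53 were called in that direction and none in the other. Over the 7536 genes, 30 were called more positive and 248 less positive. The 6 belong to the mitochondrial pathway. *Mcad* and *CG7461*, acyl-CoA dehydrogenases, take the first step of a β-oxidation round. *Mtpalpha* and *Mtpbeta*, the subunits of the mitochondrial trifunctional protein, and *yip2*, a thiolase, carry the later ones, and *Etf-QO* passes the electrons to ubiquinone. All 6 rose in males, by 0.26 to 0.56 on the log2 scale, and had values between −0.09 and 0.11 in females, which did not pass. *Etf-QO* measured 187, 195 and 187 CPM in *bmm* males, against 132, 122 and 130.1 CPM in control males. Its female levels were 156, 158 and 150.5 CPM in *bmm* females, against 149, 139.6 and 141 CPM in control females. The *bmm* males lay well above control males, and the gap in females was small, so that the interaction was 0.45 ± 0.07 (adjusted p = 0.00874). *Mtpalpha* (2L:9573563-9576769) measured 244, 260.4 and 239 CPM in *bmm* males, against 208, 187 and 186 CPM in control males. Female levels of *Mtpalpha* were 404, 392 and 389 CPM in *bmm* females, against 429.6, 412 and 421 CPM in control females. Here the *bmm* libraries stood above controls in males and slightly below them in females, with an interaction of 0.45 ± 0.08 (adjusted p = 0.0133). *Mtpbeta* gave 0.44 ± 0.08, *yip2* 0.45 ± 0.09, *CG7461* 0.28 ± 0.07 and *Mcad* 0.26 ± 0.06. *Etf-QO* and *Mtpalpha* were called in all 12 fits with a library left out, *Mtpbeta* in 11, *yip2* in 10, and *Mcad* and *CG7461* in 3 each. With the replicate block in females, *Mcad* and *CG7461* did not pass (adjusted p = 0.0532 for both) and the other 4 did.

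The rest of the pathway did not move as a block. Over the 7536 genes, 200 rose and 259 fell in males, while 554 rose and 50 fell in females. Of the 53 genes, 11 rose and 4 fell in males, while 3 rose and 1 fell in females, and the median log2 fold change was 0.09 in males and −0.02 in females, with a median interaction of 0.05 against −0.04 over the 7536 genes. That median lay between 0.05 and 0.14 with 1 library left out and reached 0.11 with RLE size factors. *pdgy*, an acyl-CoA synthetase, and *colt*, the carnitine-acylcarnitine carrier of the inner membrane, rose in males (0.38 and 0.27), but their interactions of 0.23 and 0.23 did not pass. *whd*, the carnitine palmitoyltransferase of the outer membrane, had an interaction of −0.05 and *CPT2*, its inner-membrane partner, 0.13, neither called. The 4 that fell in males were *bgm*, *CG9149*, *CG10932* and *CG17597*, with interactions between −0.38 and −0.04 that did not pass. *CROT*, a carnitine octanoyltransferase of the peroxisome that was not on the list but was among the 15 most positive genes, rose in males (0.46, against −0.01 in females, which did not pass), with an interaction of 0.47 ± 0.10. Against 3.69% called of the 7536 genes, those of lipid droplets and triglyceride metabolism gave 1 call of 21, *CG1941*. The 21 included *bmm* itself. Of the others, *Lsd-1* and *Lsd-2*, which are perilipins, *Jabba*, *mdy*, a diacylglycerol acyltransferase, and *Agpat3* rose in males, and *mdy* rose in females too, but their interactions, between 0.12 and 0.40, did not pass. Over the 7536 genes, 1286 had an unadjusted p under 0.05 for the interaction by edgeR's test, and DESeq2 called 489, limma-trend 287 and voom 421. Nuclear genes of oxidative phosphorylation had 0 of 64 called by edgeR (6 at an unadjusted p under 0.05, 1 called by DESeq2, 0 by limma-trend and 0 by voom). Those of the tricarboxylic acid cycle had 0 of 26 called by edgeR (5 at an unadjusted p under 0.05, 3 by DESeq2, 0 by limma-trend and 1 by voom). Mitochondrial ribosomal proteins had 0 of 71 called by edgeR (7 at an unadjusted p under 0.05, 2 by DESeq2, 0 by limma-trend and 0 by voom). Of these 71, 63 had an interaction above 0 (88.7%, against 38.5% of the 7536 genes), with a median of 0.11, or 0.18 with RLE size factors, and medians of 0.004 in males and −0.12 in females. With 1 library left out, the median interaction lay between 0.08 (without control male replicate 3) and 0.23 (without *bmm* female replicate 2).

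Other genes more positive in males took different courses. *Pepck2*, a phosphoenolpyruvate carboxykinase, an enzyme class that starts gluconeogenesis, measured 14.4, 14.9 and 13.1 CPM in *bmm* males, against 7.29, 6.36 and 7.48 CPM in control males. In females *Pepck2* measured 9.58, 8.15 and 8.38 CPM in *bmm* females, against 8.45, 8.805 and 7.13 CPM in control females, and these ranges overlapped. Its interaction was 0.91 ± 0.15 (adjusted p = 0.0121). Of 36 genes of glycolysis, gluconeogenesis, trehalose and glycogen, 1, *Pepck2*, was called more positive in males, and 2, *Hex-C* and *Pfrx*, less positive. Over the 7536 genes, 30 were called more positive and 248 less positive. *CG10513* rose in males and fell in females. It measured 197, 209 and 223 CPM in *bmm* males, against 113, 102 and 131 CPM in control males, and 27.1, 22.7 and 23.5 CPM in *bmm* females, against 42.5, 34.7 and 32.8 CPM in control females, with an interaction of 1.45 ± 0.16 (adjusted p = 9.74e-04). *Tom70*, an import receptor of the mitochondrial outer membrane, passed the test as a fall in females only. The *bmm* males also lay below control males, by a smaller difference that did not pass. Levels of *Tom70* were 109, 108 and 109.8 CPM in *bmm* males, against 118, 123 and 117 CPM in control males, and 54.95, 50.8 and 52.1 CPM in *bmm* females, against 89.3, 91.3 and 88.95 CPM in control females. That difference, at 0.64 ± 0.07 (adjusted p = 6.07e-04), was called in all 12 fits with a library left out. *phr6-4*, the (6-4) photolyase that repairs ultraviolet damage, fell in females only. It measured 6.1, 6.87 and 5.57 CPM in *bmm* males, against 6.42, 4.61 and 4.2 CPM in control males, and 6.98, 5.16 and 5.09 CPM in *bmm* females, against 19.3, 16.5 and 17.2 CPM in control females. Only the male libraries overlapped, and its interaction was 1.92 ± 0.24 (adjusted p = 0.00233). The P450 *Cyp6a8* (0.68), the secreted phospholipase *GIIIspla2* (0.58), *CG17752* (0.86) and *CG12290* (0.51) rose in males only, while *mRF1*, a release factor of mitochondrial translation (0.51), and *CG5773* (0.47) fell in females only.

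Of the 4 genes among the 7536 with an interaction over 1, *tor* and *CG1941* were next to each other on chromosome arm 2R. *tor* encodes the receptor tyrosine kinase Torso, which patterns the ends of the embryo. It was on none of the reproductive lists used, and how much of its RNA in females came from the ovary was not measured. *tor* lies at 2R:7705183-7709184 on the minus strand and *CG1941*, a predicted diacylglycerol acyltransferase, at 2R:7709873-7711981 on the plus strand, so that they start close together and point away from each other. *tor* measured 158, 178 and 173 CPM in *bmm* males, against 21.1, 9.43 and 8.67 CPM in control males, and 167, 162 and 163 CPM in *bmm* females, against 91.03, 87.9 and 93.98 CPM in control females. *bmm* flies of both sexes thus stood at like levels and control males far below control females, with an interaction of 2.83 ± 0.33 (adjusted p = 0.00178), a rise of 3.68 ± 0.24 in males, and a fold change of 0.85 ± 0.23 in females, which did not pass (adjusted p = 0.0536). The 3 control males followed the order of their female RNA, which made up 23.3% of the *tor* level there. *CG1941* measured 28.2, 36.7 and 29.04 CPM in *bmm* males, against 10.3, 12.2 and 11.4 CPM in control males. Female levels of *CG1941* were 10.1, 8.94 and 9.31 CPM in *bmm* females, against 8.94, 8.26 and 9.002 CPM in control females, and these overlapped, so that the rise was in males only (interaction 1.36 ± 0.16, adjusted p = 0.00133).

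The genes around this pair were then looked up, after these values were seen. Of 30 genes tested within 100 kb of the start of *tor*, 5 were called, all more positive in males, out of 40 such genes in the whole table. *CG34216*, *tor*, *CG1941* and *Dgat2* are 4 neighbours that span 2R:7703506-7714182. *CG34216* and *Dgat2* were under 5 CPM in at least 1 group. *CG34216* measured 23.4, 25.97 and 24.7 CPM in *bmm* males, against 6.15, 4.79 and 5.09 CPM in control males, and 11.3, 10.02 and 9.05 CPM in *bmm* females, against 4.01, 3.91 and 4.73 CPM in control females, so that it rose in both sexes and more in males (interaction 0.95 ± 0.17, adjusted p = 0.0144). *Dgat2*, an enzyme of triglyceride synthesis, measured 13.2, 14.4 and 12.6 CPM in *bmm* males, against 3.85, 4.24 and 3.48 CPM in control males, and 2.22, 3.31 and 2.33 CPM in *bmm* females, against 2.53, 2.64 and 1.9 CPM in control females, and rose in males only (interaction 1.63 ± 0.24, adjusted p = 0.00609). *CG46385* (2R:7737019-7782637), a further 22.8 kb away, rose in males and fell in females, with 513, 489 and 503 CPM in *bmm* males, against 412, 387 and 365 CPM in control males, and 551, 556 and 547 CPM in *bmm* females, against 769.5, 771 and 774 CPM in control females (interaction 0.86 ± 0.07, adjusted p = 1.14e-04). Between *Dgat2* and this gene, *CG1946* and *Gdap2* were not called, at 0.68 and −0.06. Where the *UAS-bmm* insertion lies was not given in the sources used here, and a part of it in these changes was not tested.

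**Figure D5:**
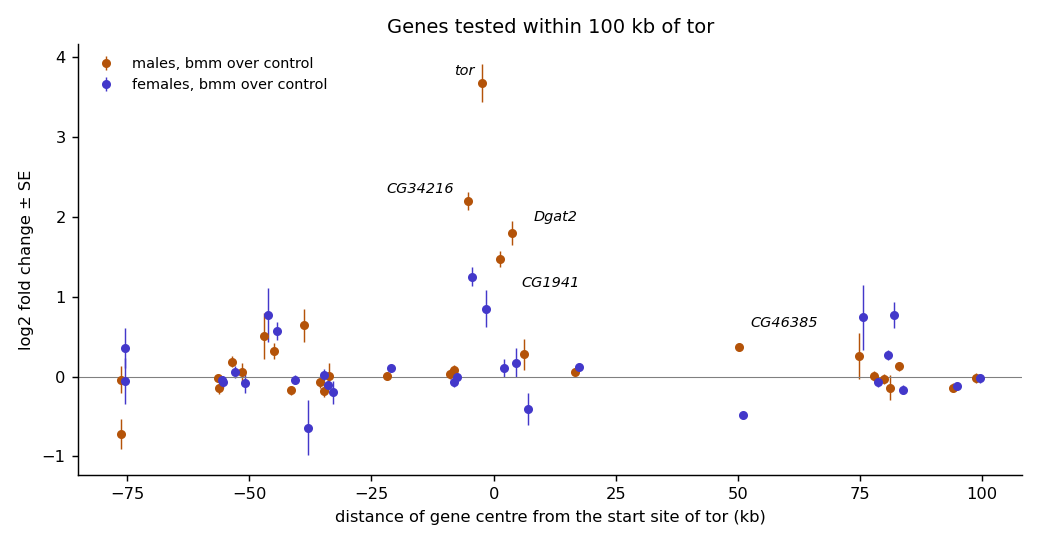
Log2 fold change of *bmm* over control (± SE) in males (orange) and females (violet) for the 30 genes tested within 100 kb of *tor*, by the distance of the gene's centre from the start of *tor*. The 4 neighbours *CG34216*, *tor*, *CG1941* and *Dgat2* stand well above 0 in males, between 1.47 and 3.68, while most other genes lie near 0 in both sexes.

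Other called genes within 30 kb of each other were looked up after their values were seen. After the maltases, the largest were 5 tetraspanin genes at 2R:7009498-7066113 (*Tsp42Ed*, *Tsp42Ee*, *Tsp42Ei*, *Tsp42Eq* and *Tsp42Er*), all less positive in males, and a group at 3R:25273837-25291366 in which *CG31104*, *CG11878*, *CG31300* and *CG11893* were less positive and *CG10513* more positive in males. How often such runs arise among other genes was not tested.

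For 19 genes the response passed the test in both sexes with opposite sign, 17 of them lower in *bmm* males and higher in *bmm* females. Besides *CG15533*, *CG8093*, *CG31104*, *CG6484*, *Mal-A1*, *Mal-A2*, *Mal-A6*, *kappaTry* and *CG7542*, these were *Chs2*, a chitin synthase, *PIG-Wb*, of the pathway of membrane anchors, *Idgf1*, a growth factor related to chitinases, *teq*, a serine protease, *Orct*, an organic cation transporter, the P450 *Cyp6d4*, *CG34026* and *CG6830*. With the replicate block in females, *Orct* did not pass in males (adjusted p = 0.0834). *Chs2* measured 32.9, 33.4 and 30.5 CPM in *bmm* males, against 41.04, 42.5 and 44.3 CPM in control males, and 31.2, 29.02 and 34.9 CPM in *bmm* females, against 21.1, 20.5 and 25.7 CPM in control females, with no overlap between genotypes in either sex and an interaction of −0.90 ± 0.13 (adjusted p = 0.00544). The 2 genes of the opposite kind were *CG10513* and *CG46385*.

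The share of genes called followed the difference in level between the sexes, which the contrast itself does not use. Of 1253 genes with a level more than 2 times higher in males, 9.58% were called (5 more positive and 115 less positive in males), against 3.81% of 3757 genes within 2 times and 0.594% of 2526 genes more than 2 times higher in females. The first of these groups had a median log2 fold change of 0.05 in males and 0.22 in females, and the last −0.12 in males and −0.10 in females. Over the 7536 genes, 1286 had an unadjusted p under 0.05 for the interaction by edgeR's test. By the test in each sex, 200 of the 7536 rose and 259 fell in males, and 554 rose and 50 fell in females. No call was made by edgeR, DESeq2, limma-trend or voom among 32 proteasome subunits and 41 translation factors (1 of each at an unadjusted p under 0.05) or 26 endoplasmic reticulum chaperones (0 at that p). Of 26 cytosolic and inducible chaperones, which fold proteins, 0 were called by edgeR, with 10 at an unadjusted p under 0.05, 5 called by DESeq2, 1 by limma-trend and 3 by voom. Of these, 0 rose and 6 fell in males, while 1 rose and 0 fell in females, and the median interaction was −0.06. *Hsp70Bb*, whose higher level in *bmm* males is given above, is thus not counted here among genes that rose in males. Peritrophic matrix proteins had 0 of 6 called by edgeR, with 3 at an unadjusted p under 0.05, 1 called by DESeq2 and a median interaction of −0.51. DNA replication and cell cycle genes had 0 of 25 called by edgeR, with 8 at that p, 2 called by DESeq2 and a median interaction of −0.31. The other lists with 0 called by edgeR (mitochondrially encoded, cuticle and fat body proteins, vacuolar ATPase, clock and eye pigment genes) had 0 to 4 genes each at that p and 0 to 2 called by DESeq2. Among clock genes, limma-trend and voom called 1 each. Cytosolic ribosomal proteins had 0 of 84 called by edgeR, with 3 at an unadjusted p under 0.05, 0 called by DESeq2, 0 by limma-trend and 1 by voom. Genes of neurons and synapses had 0 of 37 called by edgeR, with 6 at an unadjusted p under 0.05, 1 called by DESeq2, 0 by limma-trend and 1 by voom, while 2 rose in males and 9 in females. Among 12 antimicrobial peptides edgeR, DESeq2, limma-trend and voom called 0, with 3 at an unadjusted p under 0.05 and a median interaction of −0.50.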

How the data were processed

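Whole-fly RNA of 12 libraries was measured by RNA-seq. The deposited values were raw counts for each symbol, made by the authors with HISAT2 alignment to BDGP6.28 and featureCounts. Only reads of high mapping quality were kept, so near-identical copies may have lost reads. Tool versions and the strand setting of the counting were not given in the sources used here, so overlapping and antisense genes may share reads. The deposited table scaled to CPM was not used. The counts of 17807 symbols were filtered with filterByExpr by group, which left 13988, scaled by TMM and fitted with edgeR's quasi-likelihood test (1 mean per group, all 12 libraries). The interaction was called at a Benjamini-Hochberg adjusted p under 0.05 over all genes tested. The fit was also run on simulated counts. These held no difference in female RNA between male libraries and no effect shared by same-numbered libraries, so that run cannot speak to either. CPM use TMM-scaled library sizes, and log2 fold changes carry the standard error of the fit. The study's exact test compares 2 groups, so it was not used for the interaction.

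The genes named are *bmm*, the 15 called genes with the most positive and the 15 with the most negative interaction, called genes of the lists described, and genes called in both sexes with opposite sign. Members and gene lists were chosen with earlier results of these data known. Alternatives were library size, upper quartile or RLE scaling, DESeq2, limma-trend on log2(CPM + 1), voom with sample weights, no filter on low counts, subtraction of female RNA from male libraries, a replicate block, another CPM limit, and each library left out. Leaving out control male replicate 1 and *bmm* female replicate 1 together, and the replicate number as a block in females only, were chosen after seeing the data. The deviations of same-numbered *bmm* and control libraries from their group means correlated in all 3 female pairs (r = 0.258 to 0.437) and in 1 of 3 male pairs over 0.1 (−0.0898 to 0.181), so the numbers were taken to pair the libraries in females only. Gene positions came from the Ensembl annotation of the same Release 6 assembly, which matched 7054 of the 7536 genes by symbol. Replicate pairs of a group differed by more than sampling noise (chi-square per degree of freedom 9.91 to 32.6). No promoter or gene sequence was used here. R 4.3.3, edgeR 4.0.16, limma 3.58.1, DESeq2 1.42.0, Python 3.11.15 and matplotlib 3.10.9 were used.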

Additional observations from a re-analysis of the deposited data

Results flagged for a closer look

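The results here drew attention because the effect of *bmm* overexpression differed between males and females by a test of the difference itself. This held for 248 genes with a less positive response in males and for 30 with a more positive one. In 19 genes the effect also passed the test in each sex with opposite sign. Lower in *bmm* males and higher in *bmm* females were *CG15533* (interaction −2.38 on the log2 scale), *CG8093* (−1.89), *CG31104* (−1.40), *CG6484* (−1.34), *Mal-A1* (−1.27), *Mal-A6* (−1.26), *PIG-Wb* (−1.21), *Mal-A2* (−1.20), *kappaTry* (−1.03), *CG7542* (−0.98), *Chs2* (−0.90), *CG34026* (−0.82), *CG6830* (−0.76), *Orct* (−0.74), *Cyp6d4* (−0.64), *Idgf1* (−0.54) and *teq* (−0.48). Higher in *bmm* males and lower in *bmm* females were *CG46385* (0.86) and *CG10513* (1.45). Groups of 3 libraries are too small for a test of single outlying values.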

How the results depend on the processing

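Of 1892 values of 86 named genes under the alternatives, none changed sign among called genes, 1434 kept their side of the threshold, 457 no longer passed and 1, *bmm* without control male replicate 1, newly passed. The alternatives reuse the libraries by which the called genes were chosen, so kept signs are no independent check. By edgeR the interaction was called in 2.91% of genes tested (278 of the 7536), with 710 calls for the effect in males and 779 for that in females. By DESeq2 it was called in 5.25% (489), with 1238 calls in males and 1438 in females, and by voom with sample weights in 4.42% (421), with 1286 calls in females. Among genes within 2 times between the sexes 143 were called. Replicate numbers paired the libraries in females only, and over all groups 4 of 18 same-numbered pairs had a correlation of deviations over 0.1. With a replicate block in females the interaction was called in 2.79% of genes (276 of the 7536), with 526 calls in males and 872 in females. In males *CG3604* (adjusted p = 0.0682), *Jon25Bii* (0.0552) and *lambdaTry* (0.0728) then did not pass while *CG4363* (0.0471) and *CG9084* (0.0464) did, and *Npc2b* did not pass in females (0.0501). With a replicate block over all 4 groups the interaction was called in 1.82% of genes (181 of the 7536), with 450 calls in males. With 1 library left out, the interaction was called in between 0.431 and 4.02% of genes, and counts ranged between 47 and 397 for the 7536, 202 and 1084 for the effect in males, and 247 and 1039 for that in females. Leaving out control male replicate 1 and *bmm* female replicate 1 together gave 3.31% (312). At a limit of 1 CPM, 2 genes of lipid droplets and triglyceride were called in place of 1. The median interactions of 4 lists (maltases, fatty acid oxidation, sugar transporters and mitochondrial ribosomal proteins) gave 92 values under the alternatives, of which 91 moved by less than the spread between replicates, and that of sugar transporters was −0.08 without control female replicate 2. The cause was not tested for any of these. Small differences in low genes were not detectable at this depth and with 3 replicates.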

Other observations

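Outside the 7536 genes, 129 further genes were called in the interaction, 122 of them under 5 CPM in at least 1 group and 21 on a reproductive list. *CG17470* (2L), next to the photolyase gene *phr6-4*, measured 103.1, 91.0 and 98.99 CPM in *bmm* males, against 117.7, 132 and 122.8 CPM in control males, and 0.650, 0.764 and 0.832 CPM in *bmm* females, against 5.72, 4.90 and 5.20 CPM in control females. It fell in both sexes, by 0.35 on the log2 scale in males and by 2.79 in females, so that its interaction was 2.44 ± 0.15 (adjusted p = 1.2e-05, edgeR's quasi-likelihood test). *phr6-4* itself fell in females only. The pair was looked up after the values of *phr6-4* were seen, and no cause was tested.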
